A study of Homo sapiens with 6 samples.

Results

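The genes of cholesterol and fatty acid synthesis that are targets, regulators or partners of the SREBP transcription factors were followed in MDA-MB-231 cells treated with a plant extract. The set was a list of 39 symbols, taken by pathway, and all 39 were found among the 60651 gene rows and were tested. MDA-MB-231 is a human breast cancer cell line of basal, mesenchymal character that lacks hormone receptor expression. Cells were treated for 24 h with DMSO, the solvent, or with AF-EAE, the ethyl acetate extract of the herb Antenoron filiforme, at 75 or 150 µg/ml. Each of the 3 groups had 2 RNA-sequencing libraries, and AF-EAE was a mixture of undefined composition as far as the labels say. The labels call the 2 libraries of a group biological replicates but do not say whether they came from separate cultures, so every p-value here reflects library-to-library spread, which may be technical.

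Libraries held 15621103 to 17113722 counts in genes, and 3 counts amount to 0.175 to 0.192 CPM on a library's own total, before TMM scaling. Levels below are in CPM, the counts scaled to a common library total, after TMM scaling. The defining markers were in keeping with the cell line's name. Summed over 6 basal and mesenchymal markers the level was 4051 to 4244 CPM in DMSO, 3161 to 3217 CPM at 75 µg/ml and 2568 to 2616 CPM at 150 µg/ml. The 5 epithelial markers summed to 743 to 752 CPM in DMSO, 503 to 518 CPM at 75 µg/ml and 419 to 437 CPM at 150 µg/ml. Luminal markers reached at most 15.8 CPM, and sums over the leukocyte, adipocyte, hepatocyte and stromal lists at most 0.12, 1.44, 0.696 and 16.1 CPM, with PTPRC, ADIPOQ and APOB at 0 counts in every library. Sums of the cell line's own markers thus fell with dose. Most of the 39 listed lipid genes were also lower than DMSO at each dose under TMM scaling. At 150 against 75 µg/ml 9 of the 39 were lower and 4 higher. The part of the marker changes in the results was not tested. By the test described below VIM, CD44, MSN, AXL, KRT8 and KRT18 were lower at both doses. ZEB1 and EPCAM did not pass, KRT19 was higher at 150 µg/ml, and SPARC and CDH1 were too low to be tested. Among luminal markers ESR1 was higher at both doses, at means of 0.849 CPM at 75 and 0.654 CPM at 150 µg/ml, and GATA3 was lower at 150 µg/ml. In bulk RNA, fewer cells that express a gene and less of its RNA per cell cannot be told apart.

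SREBP2, made by SREBF2, mainly drives the genes of cholesterol synthesis, and SREBP1, made by SREBF1, mainly those of fatty acid synthesis and desaturation. Both precursors sit in the endoplasmic reticulum with the escort protein SCAP, and INSIG proteins hold the complex there when sterols are plentiful. When sterols are scarce the complex moves to the Golgi, where proteases release the active factor. Acetyl-CoA feeds both routes, either through mevalonate, farnesyl diphosphate and squalene to sterols, or through malonyl-CoA to palmitate, which is then elongated, desaturated and built into glycerolipids. Many cancer cells keep these routes active to supply membranes.

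Most members were lower after AF-EAE. At 150 µg/ml 26 of the 39 members fell and 6 rose against DMSO, and at 75 µg/ml 21 fell and 3 rose (edgeR's quasi-likelihood test on all 15589 tested genes, Benjamini-Hochberg adjusted p under 0.05). Of all tested genes, 25.7% were lower and 25.8% higher at 150 µg/ml, and 19.4% were lower and 19.2% higher at 75 µg/ml. Members are well expressed, and among the 9513 genes with a mean of 10 CPM or more the share called lower was 36.7% at 150 µg/ml and 29.1% at 75 µg/ml. Of the 37 members at that level 25 and 20 were lower, and 6 and 3 higher, at 150 and 75 µg/ml. The median log2 fold change of the members was -0.34 at 150 µg/ml and -0.22 at 75 µg/ml, while the median of all tested genes was 0.03 and 0.01. The median absolute log2 fold change was 0.38 in members and 0.38 in all tested genes at 150 µg/ml. At 75 µg/ml it was 0.23 in members and 0.28 in all tested genes. All tested genes include those under 10 CPM, and this median was not taken for genes at the members' level. Both comparisons share the DMSO libraries.

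The scaling of the libraries moved these counts. With libraries scaled by total gene counts in place of TMM, 16 members were lower and 10 higher at 150 µg/ml, and 11 lower and 4 higher at 75 µg/ml. Of all tested genes, 16.3% were then lower and 38.7% higher at 150 µg/ml, and 11.6% lower and 28.9% higher at 75 µg/ml, and this scaling put the median gene at a log2 fold change of 0.22 at 150 µg/ml and 0.14 at 75 µg/ml. Against that moved background the members' medians were -0.15 at 150 µg/ml and -0.10 at 75 µg/ml. Under total counts the 11 members lower at 75 µg/ml were ACAT2, HMGCS1, FDFT1, SQLE, DHCR7, SREBF1, FASN, ELOVL5, SCD, FADS2 and ACSL1, and these 11 were lower at 75 µg/ml under every alternative listed in the closing section. At 150 µg/ml 15 members were lower and 6 higher under every such alternative.

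**Figure D1:**
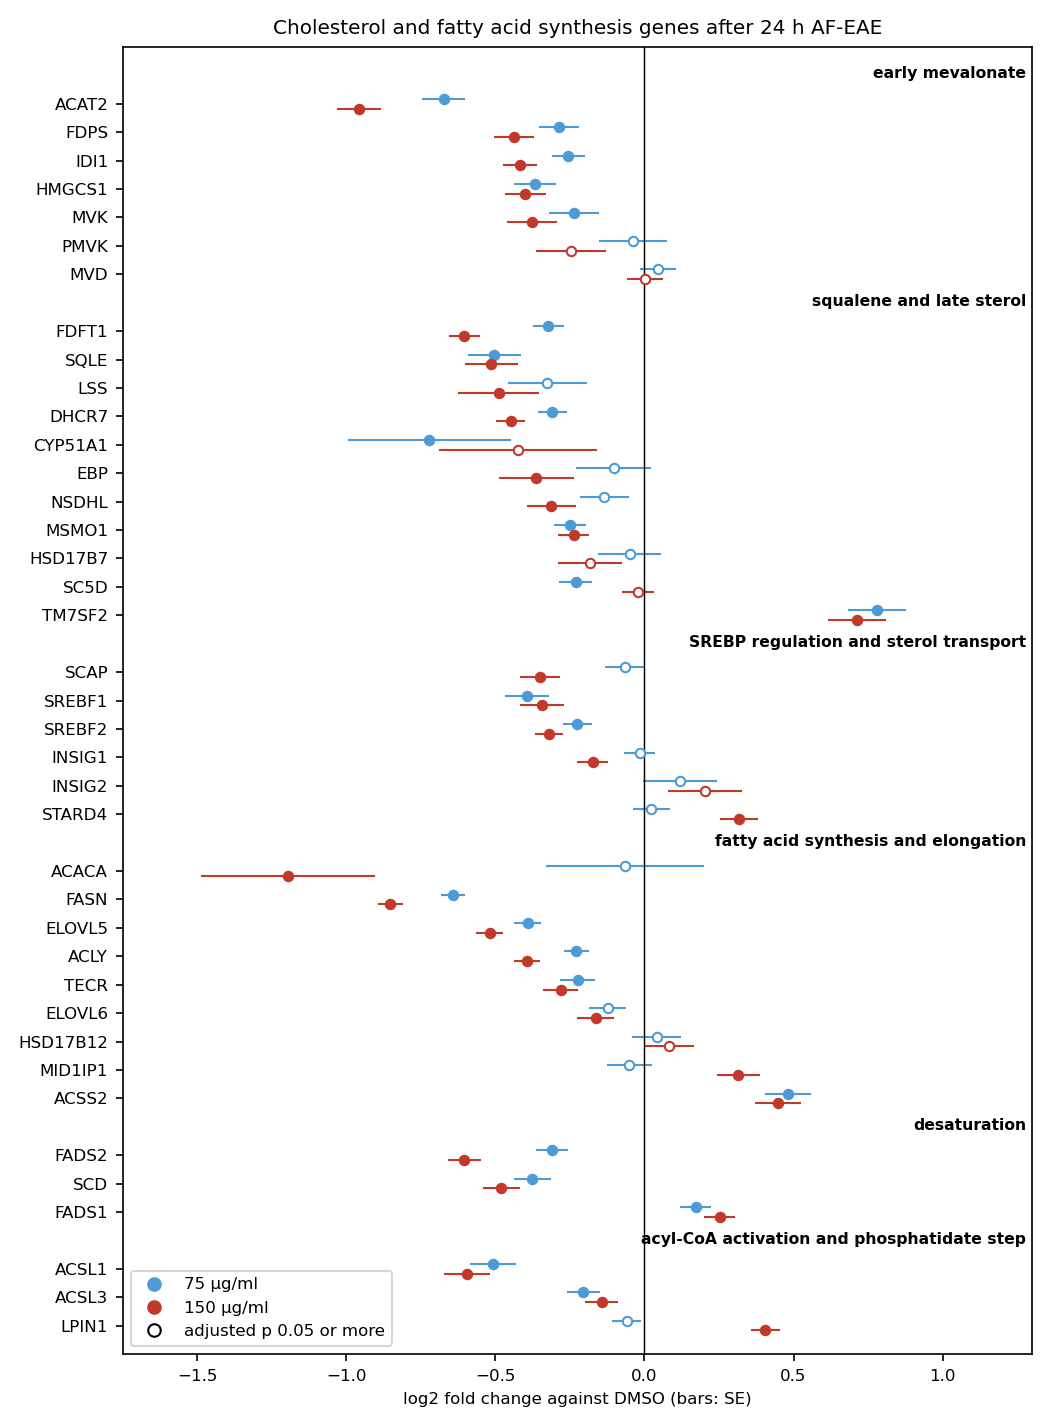
Log2 fold change of each of the 39 members (points, coloured by dose; edgeR, TMM scaling) with bars of 1 SE, at 150 and at 75 µg/ml AF-EAE against DMSO, grouped by step of the pathway; filled points passed an adjusted p of 0.05. Most points lie below 0, and TM7SF2, ACSS2 and FADS1 are the members called higher at both doses.

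**Figure D2:**
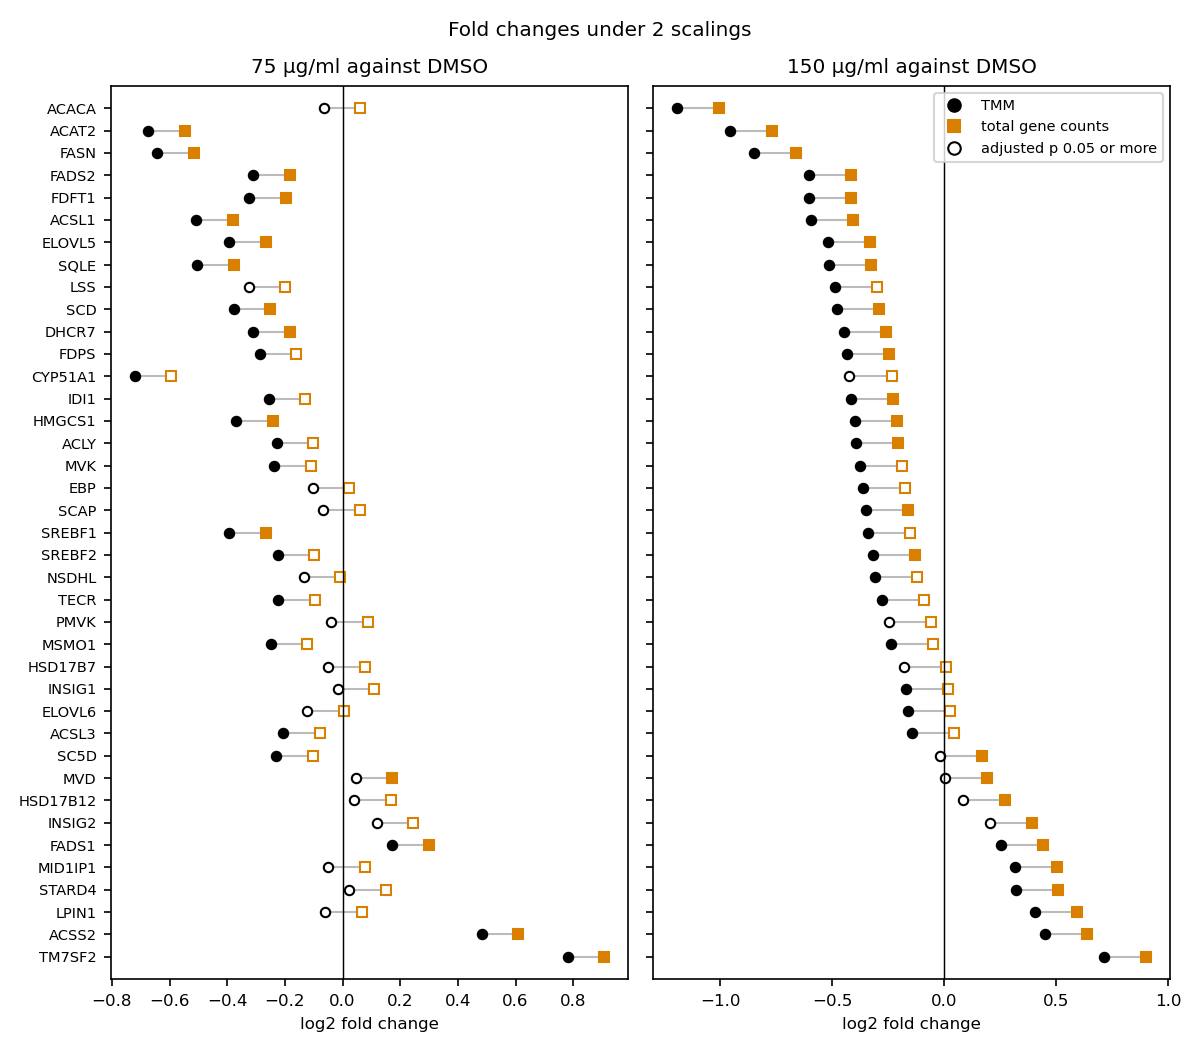
Log2 fold change against DMSO (horizontal axis) of each of the 39 members under TMM scaling (circles) and under scaling by total gene counts (squares), 1 panel per dose; open symbols had an adjusted p of 0.05 or more. Every square lies to the right of its circle, and FASN and ACAT2 stay below 0 and called under both.

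The early mevalonate steps take acetyl-CoA to farnesyl diphosphate, the branch point to sterols and to prenylated proteins. Of the 7 genes, 5 fell at both doses (ACAT2, HMGCS1, MVK, IDI1 and FDPS), none rose, and the median log2 fold change was -0.40 at 150 µg/ml and -0.26 at 75 µg/ml (-0.21 and -0.13 under total counts). ACAT2, the cytosolic thiolase that makes acetoacetyl-CoA, had 102 and 118 CPM with DMSO, 71.5 and 66.9 CPM at 75 µg/ml and 55.7 and 58.0 CPM at 150 µg/ml. Its libraries did not overlap between any groups, and edgeR gave a log2 fold change of -0.96 (adjusted p = 8.2e-09, SE 0.0739) at 150 µg/ml and -0.67 (adjusted p = 1.3e-06, SE 0.0728) at 75 µg/ml against DMSO. Other genes, among them SOD2 and TCP1, overlap 52.3% of the exonic length of ACAT2 in GENCODE. Its level may therefore be a lower estimate, as strand use and annotation release in the counting are not given. HMGCS1, which makes HMG-CoA for the mevalonate route, had 128 and 151 CPM with DMSO, 105 and 112 CPM at 75 µg/ml and 106 and 105 CPM at 150 µg/ml. It was lower in all 4 treated libraries than in both DMSO libraries, and the doses overlapped (log2 fold change -0.40 at 150 and -0.37 at 75 µg/ml).

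IDI1, which interconverts the isoprene units, had 201 and 221 CPM with DMSO, 181 and 172 CPM at 75 µg/ml and 161 and 155 CPM at 150 µg/ml. Its log2 fold change was -0.42 (adjusted p = 7.5e-06, SE 0.0563) at 150 µg/ml by edgeR, and the call at 75 µg/ml (-0.26) was lost under total counts. FDPS, the farnesyl diphosphate synthase, had 78.4 and 79.5 CPM with DMSO, 65.8 and 63.6 CPM at 75 µg/ml and 56.0 and 60.5 CPM at 150 µg/ml, and fell by 26.1% at 150 µg/ml (edgeR log2 fold change -0.44, adjusted p = 3.4e-05). The FDPS call at 75 µg/ml was lost under total counts. FDPS has 8 named pseudogene copies in the annotation, which leaves its counts less certain. MVK, the mevalonate kinase, fell by 0.38 on the log2 scale at 150 µg/ml and by 0.24 at 75 µg/ml, calls lost under total counts. The MVK call at 75 µg/ml was also lost with DESeq2 and without the first DMSO or the second 75 µg/ml library. The next kinase, PMVK, and the decarboxylase MVD did not pass at either dose, with log2 fold changes of -0.25 and 0.00 at 150 µg/ml, and MVD was called higher at both doses under total counts.

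The late sterol steps run from squalene synthase to cholesterol. Of these 11 genes 7 fell and 1 rose at 150 µg/ml, and 6 fell and 1 rose at 75 µg/ml, with medians of -0.36 and -0.25 (-0.18 and -0.12 under total counts). FDFT1, the squalene synthase that commits farnesyl diphosphate to sterols, had 277 and 274 CPM with DMSO, 226 and 214 CPM at 75 µg/ml and 174 and 189 CPM at 150 µg/ml. The 3 groups were separate and in order of dose, and edgeR gave -0.60 (adjusted p = 3.8e-08, SE 0.0527) at 150 µg/ml and -0.32 (adjusted p = 9.9e-05, SE 0.0523) at 75 µg/ml. SQLE, the squalene epoxidase and a rate-limiting enzyme of the route, had 46.1 and 47.0 CPM with DMSO, 35.1 and 30.6 CPM at 75 µg/ml and 31.2 and 34.0 CPM at 150 µg/ml. It was lower at both doses, by a log2 fold change of -0.51 at 150 and -0.50 at 75 µg/ml, and the doses overlapped. DHCR7, which reduces the last intermediate to cholesterol, had 373 and 358 CPM with DMSO, 299.6 and 291 CPM at 75 µg/ml and 259 and 276 CPM at 150 µg/ml. Each treated library of DHCR7 lay below both DMSO libraries (edgeR log2 fold change -0.45, adjusted p = 6e-07, SE 0.0489, at 150 µg/ml).

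TM7SF2 went the other way. This sterol reductase acts on the intermediate that CYP51A1 makes, a reaction that the lamin B receptor can also carry out. TM7SF2 had 18.8 and 17.9 CPM with DMSO, 31.8 and 31.4 CPM at 75 µg/ml and 30.9 and 29.3 CPM at 150 µg/ml. The treated libraries were all above the DMSO libraries, 1.64-fold at 150 µg/ml and 1.72-fold at 75 µg/ml. By edgeR its log2 fold change was 0.71 (adjusted p = 9.1e-06, SE 0.0979) at 150 µg/ml and 0.78 (adjusted p = 6.5e-06, SE 0.0977) at 75 µg/ml. TM7SF2 was called higher at both doses under every alternative. CYP51A1, the lanosterol demethylase, had 7.88 and 6.22 CPM with DMSO, 5.50 and 3.06 CPM at 75 µg/ml and 6.53 and 4.005 CPM at 150 µg/ml, with overlapping groups at 150 µg/ml. Its call at 75 µg/ml (log2 fold change -0.72, edgeR adjusted p = 0.046) was lost under total counts, with DESeq2, and without the first DMSO or the second 75 µg/ml library. Other genes overlap 83.2% of its exonic length and 3 pseudogene copies are named, so its counts are a poor measure of its transcript. LSS, the lanosterol synthase, had 74.4 and 48.6 CPM with DMSO, 47.7 and 50.5 CPM at 75 µg/ml and 40.6 and 47.1 CPM at 150 µg/ml, and its call at 150 µg/ml was lost without the first DMSO or the first 150 µg/ml library, with DESeq2 and under total counts.

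MSMO1, the methylsterol monooxygenase, fell at both doses, and EBP, the sterol isomerase, and NSDHL, a sterol dehydrogenase, fell at 150 µg/ml, by 0.24, 0.36 and 0.31 on the log2 scale. Each of these 3 calls at 150 µg/ml was lost under total counts, the NSDHL call also without the first 150 µg/ml library and the EBP call also with DESeq2 and without any 1 of the 4 libraries compared. SC5D, a sterol desaturase, was lower at 75 µg/ml (log2 fold change -0.23). This call and that of MSMO1 at 75 µg/ml were lost under total counts. SC5D was not called at 150 µg/ml (-0.02), where total counts gave a call in the opposite direction (0.17). HSD17B7, the ketosteroid reductase, was called at neither dose.

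Of the 6 genes of SREBP regulation and sterol transport 4 fell and 1 rose at 150 µg/ml, and 2 fell at 75 µg/ml, with medians of -0.25 and -0.04 that became -0.06 and 0.09 under total counts. Both transcription factor genes were among those lower. SREBF2 had 265 and 266 CPM with DMSO, 230.1 and 224 CPM at 75 µg/ml and 208 and 218 CPM at 150 µg/ml, and edgeR gave -0.32 (adjusted p = 2.5e-05, SE 0.0479) at 150 µg/ml and -0.22 (adjusted p = 0.0012, SE 0.0478) at 75 µg/ml, the smaller of which was lost under total counts. SREBF1 had 119 and 143 CPM with DMSO, 96.1 and 103 CPM at 75 µg/ml and 99.7 and 107 CPM at 150 µg/ml, lower at both doses (edgeR log2 fold change -0.34, adjusted p = 0.00084, SE 0.0738, at 150 µg/ml, lost under total counts). SCAP, the escort protein, had 132 and 114 CPM with DMSO, 120.2 and 115 CPM at 75 µg/ml and 94.6 and 99.0 CPM at 150 µg/ml. It was lower at 150 µg/ml (edgeR log2 fold change -0.35, adjusted p = 0.00029, SE 0.0669) and was not called at 75 µg/ml. At 150 against 75 µg/ml its log2 fold change was -0.28. INSIG1, an SREBP target and a brake on the pathway, had 299.9 and 327 CPM with DMSO, 318 and 301 CPM at 75 µg/ml and 274 and 282 CPM at 150 µg/ml. Its small fall at 150 µg/ml (-0.17) became 0.01 under total counts, and the call was lost without the second DMSO or the first 150 µg/ml library. INSIG2, the related brake that is less tied to SREBP, was not called at either dose (0.20 at 150 µg/ml).

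STARD4, which carries cholesterol between membranes, had 122 and 137 CPM with DMSO, 132 and 131 CPM at 75 µg/ml and 168 and 154 CPM at 150 µg/ml. The libraries at 150 µg/ml lay above all others, and the 75 µg/ml and DMSO libraries overlapped. By edgeR its log2 fold change was 0.32 (adjusted p = 0.00038, SE 0.0626) at 150 µg/ml against DMSO and 0.29 (adjusted p = 0.0026, SE 0.0623) at 150 against 75 µg/ml. SREBF2, FDPS, FADS2, ACSS2, MID1IP1 and TM7SF2, which were not all changed in 1 direction, were picked by hand to show promoter windows. Where a gene had several starts, the window shown was picked because it holds a marked pattern. The windows therefore do not stand for all starts of these genes.

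The sequences are the 250 bases before the annotated start on the gene's strand, from RefSeq on GRCh38.p14, with capitals on matches, on either strand, of TCACNCNAC (a pattern of the sterol regulatory element) and of CCAAT (bound by NF-Y, a known partner of SREBP). They lie on the plus strand, at chr22:41832855-41833104 for SREBF2, chr1:155308616-155308865 for FDPS, chr11:61815953-61816202 for FADS2, chr20:34876362-34876611 for ACSS2, chrX:38801209-38801458 for MID1IP1 and chr11:65111622-65111871 for TM7SF2, and each of these starts lies inside the gene as GENCODE draws it.
SREBF2: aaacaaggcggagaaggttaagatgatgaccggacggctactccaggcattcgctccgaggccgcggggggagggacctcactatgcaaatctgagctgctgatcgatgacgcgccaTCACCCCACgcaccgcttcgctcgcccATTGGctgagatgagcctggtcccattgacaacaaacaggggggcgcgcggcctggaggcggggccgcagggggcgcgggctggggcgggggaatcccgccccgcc
FDPS: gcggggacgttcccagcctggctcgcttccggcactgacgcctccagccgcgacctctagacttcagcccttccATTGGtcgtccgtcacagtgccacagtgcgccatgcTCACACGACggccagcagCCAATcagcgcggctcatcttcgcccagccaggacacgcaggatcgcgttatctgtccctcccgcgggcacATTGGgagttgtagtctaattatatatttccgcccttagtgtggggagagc
FADS2: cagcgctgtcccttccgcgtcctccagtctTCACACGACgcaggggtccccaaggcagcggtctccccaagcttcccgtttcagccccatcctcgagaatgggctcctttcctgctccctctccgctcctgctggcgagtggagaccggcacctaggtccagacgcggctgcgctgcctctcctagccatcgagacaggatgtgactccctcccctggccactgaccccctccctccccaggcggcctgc
ACSS2: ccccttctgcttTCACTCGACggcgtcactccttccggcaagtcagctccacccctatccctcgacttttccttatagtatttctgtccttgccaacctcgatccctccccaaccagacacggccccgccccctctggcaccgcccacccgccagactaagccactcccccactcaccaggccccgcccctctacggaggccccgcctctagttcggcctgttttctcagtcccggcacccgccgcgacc
MID1IP1: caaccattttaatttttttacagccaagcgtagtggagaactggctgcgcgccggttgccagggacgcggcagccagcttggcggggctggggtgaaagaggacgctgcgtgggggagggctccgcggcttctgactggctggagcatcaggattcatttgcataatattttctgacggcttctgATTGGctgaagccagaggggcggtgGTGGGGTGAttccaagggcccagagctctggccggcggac
TM7SF2: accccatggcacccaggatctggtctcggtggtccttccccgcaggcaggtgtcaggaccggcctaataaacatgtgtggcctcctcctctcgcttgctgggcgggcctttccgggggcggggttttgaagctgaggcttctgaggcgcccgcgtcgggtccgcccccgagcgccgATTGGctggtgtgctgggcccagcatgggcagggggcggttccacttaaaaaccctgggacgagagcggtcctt

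Windows were matched by symbol for 34 of the 39 members (52 windows, since a gene can have several starts), and ACAT2, FDFT1, SQLE, FASN and HSD17B12 were not analysed here. TCACNCNAC was in 7 of the 34 (20.6%), in any window, against 2.48% of the 27305 genes in the table (35116 windows), and the members were FDPS, HSD17B7, SREBF2, ACSS2, MID1IP1, FADS2 and ACSL1. At 150 µg/ml 4 of these 7 were lower, 2 were higher (ACSS2 and MID1IP1) and 1 was not called. CCAAT was in 25 members (73.5%, and 37.0% of genes), of which 18 were lower and 4 higher at 150 µg/ml. Of all 39 members 26 were lower and 6 higher at that dose. Whether holders of a pattern differ from other members was not tested. GGGCGG, the core bound by SP1, was in 32 members (94.1%, and 46.2% of genes), of which 20 were lower and 6 higher at 150 µg/ml. CACGTG, an E-box, was in 4 (11.8%, and 7.73% of genes), of which 3 were lower and 0 higher. The window of TM7SF2 held CCAAT and no TCACNCNAC, and ACSS2 held CCAAT only in a window that is not shown. HSD17B7 and ACSL1 also hold TCACNCNAC, and their windows are not shown. All patterns were read on both strands, and a match only describes these letters. The 27305 genes were not chosen by expression, while all members were among the 15589 tested genes. The number of windows per gene was not matched either, so the shares of members and of genes are not like for like.

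Under TMM scaling, most genes of fatty acid synthesis and elongation were lower at 150 µg/ml. Under total counts 4 were lower at that dose, ACACA with its doubtful counts among them, and 3 were higher. Only ACLY, FASN and ELOVL5 were lower at 150 µg/ml under every alternative. Of these 9 genes 6 fell and 2 rose at 150 µg/ml, and 4 fell and 1 rose at 75 µg/ml, with medians of -0.28 and -0.12 (-0.09 and 0.00 under total counts). FASN, the synthase that builds palmitate (chr17:82078333-82098332, minus strand), had 1014 and 1022 CPM with DMSO, 644 and 660.5 CPM at 75 µg/ml and 561 and 567 CPM at 150 µg/ml. It fell by 44.6% at 150 µg/ml and by 35.9% at 75 µg/ml, with log2 fold changes by edgeR of -0.85 (adjusted p = 2.5e-11, SE 0.0419) and -0.64 (adjusted p = 3e-09, SE 0.0417). The 3 groups did not overlap, and FASN was lower in each comparison under every alternative. ACLY, which makes cytosolic acetyl-CoA from citrate, had 567 and 575 CPM with DMSO, 487 and 488 CPM at 75 µg/ml and 428 and 441 CPM at 150 µg/ml. Its fall was dose-ordered (edgeR log2 fold change -0.39, adjusted p = 6.4e-07, SE 0.0431, at 150 µg/ml), with the 75 µg/ml call (-0.23) lost under total counts. ELOVL5, which elongates polyunsaturated fatty acids, had 365 and 377 CPM with DMSO, 285 and 280.1 CPM at 75 µg/ml and 264 and 253 CPM at 150 µg/ml, all treated libraries below DMSO (edgeR log2 fold change -0.52, adjusted p = 5.6e-08, SE 0.0467, at 150 µg/ml).

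ACSS2, which makes acetyl-CoA from acetate, was higher where ACLY was lower. ACSS2 had 68.5 and 82.0 CPM with DMSO, 108 and 102 CPM at 75 µg/ml and 97.9 and 107 CPM at 150 µg/ml, all treated libraries above DMSO. By edgeR it rose by 0.45 (adjusted p = 0.0001, SE 0.0772) at 150 µg/ml and by 0.48 (adjusted p = 9e-05, SE 0.0772) at 75 µg/ml on the log2 scale. MID1IP1, which promotes polymerization of acetyl-CoA carboxylase, had 50.9 and 52.6 CPM with DMSO, 51.0 and 49.0 CPM at 75 µg/ml and 67.1 and 61.6 CPM at 150 µg/ml. It rose at 150 µg/ml (edgeR log2 fold change 0.32, adjusted p = 0.0015, SE 0.0731) and was not called at 75 µg/ml. TECR, an enzyme of elongation, fell by 0.28 on the log2 scale at 150 µg/ml, ELOVL6, which elongates palmitate, by 0.16, and the reductase HSD17B12 (0.08) was not called. The TECR call was lost under total counts, where ELOVL6 stood at 0.02 and HSD17B12 was called higher, and the ELOVL6 call was also lost with DESeq2, with a stricter low-count filter, and without the second DMSO or the first 150 µg/ml library.

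ACACA, the acetyl-CoA carboxylase that makes malonyl-CoA, had 12.1 and 6.35 CPM with DMSO, 6.60 and 11.1 CPM at 75 µg/ml and 4.71 and 3.37 CPM at 150 µg/ml. Its libraries overlapped between 75 µg/ml and DMSO, and the log2 fold change of -1.20 (adjusted p = 0.0022, SE 0.290) at 150 µg/ml by edgeR was lost without the first DMSO library. Its level per length, in RPKM (CPM per kilobase of exonic length), was the lowest of all members at 0.566. Around ACACA, at chr17:37084988-37406818 on hg38, 21 of 32 protein-coding neighbours within 1 Mb had 5 or fewer counts summed over the 6 libraries, among them MYO19, PIGW and ZNHIT3 (0 counts) and AATF (1 count), genes that most cell types express. The counts of ACACA are therefore not taken as a measure of its transcript. Without ACACA and CYP51A1, 25 of 37 members were lower and 6 higher at 150 µg/ml, and 20 lower and 3 higher at 75 µg/ml.

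**Figure D3:**
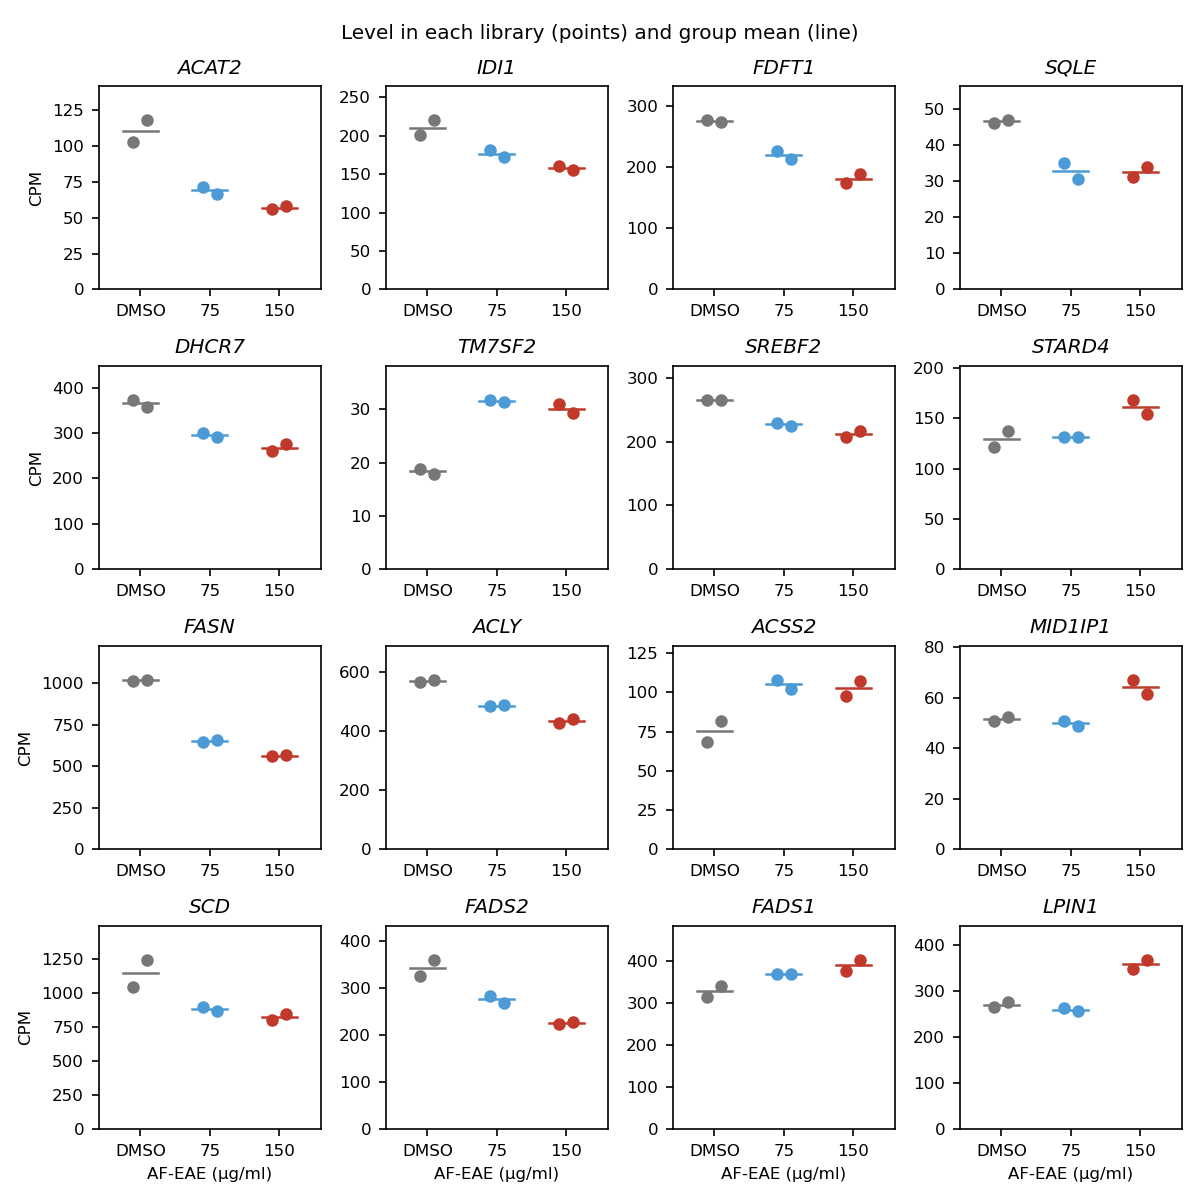
CPM (TMM-scaled) of 16 members in each of the 6 libraries (points) with the group mean (line), in DMSO and at 75 and 150 µg/ml AF-EAE; axes start at 0. FASN, FDFT1 and FADS2 step down with dose, while LPIN1, STARD4 and MID1IP1 sit highest at 150 µg/ml.

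Of the 3 desaturases 2 fell and 1 rose at both doses. SCD, which makes oleate and palmitoleate, was the most abundant member per length, at 177 RPKM over all libraries. SCD had 1045 and 1245 CPM with DMSO, 897 and 867 CPM at 75 µg/ml and 799.7 and 843 CPM at 150 µg/ml, and edgeR gave -0.48 (adjusted p = 4.3e-06, SE 0.0616) at 150 µg/ml and -0.38 (adjusted p = 0.00011, SE 0.0615) at 75 µg/ml. FADS2, which carries out the first desaturation of polyunsaturated fatty acids, had 324 and 359.6 CPM with DMSO, 283 and 268 CPM at 75 µg/ml and 223 and 227 CPM at 150 µg/ml, a dose-ordered fall (edgeR log2 fold change -0.60, adjusted p = 5.3e-08, SE 0.0541, at 150 µg/ml and -0.31 (adjusted p = 0.00019, SE 0.0536) at 75 µg/ml). FADS1, which acts later in the same route, had 315 and 342 CPM with DMSO, 370.5 and 369 CPM at 75 µg/ml and 378 and 404 CPM at 150 µg/ml. It was higher at both doses, by 0.25 (adjusted p = 0.00052, SE 0.0514) at 150 µg/ml and 0.17 (adjusted p = 0.014, SE 0.0515) at 75 µg/ml on the log2 scale by edgeR, the smaller of which was lost without the first DMSO library or either 75 µg/ml library. FADS1 (chr11:61799625-61829318, minus strand, hg38) and FADS2 (chr11:61792980-61867354, plus strand) overlap, over 5.57% of the exonic length of FADS1 (together with MIR1908), and the labels do not state whether counting used the strand.

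In the last group, ACSL1 and ACSL3 fell at both doses and LPIN1 rose at 150 µg/ml. ACSL1, which activates long-chain fatty acids, had 61.5 and 57.3 CPM with DMSO, 41.7 and 41.9 CPM at 75 µg/ml and 40.9 and 37.8 CPM at 150 µg/ml. All treated libraries lay below DMSO, and edgeR gave -0.60 (adjusted p = 5.2e-06, SE 0.0778) at 150 µg/ml and -0.51 (adjusted p = 5.4e-05, SE 0.0775) at 75 µg/ml. ACSL3, the isoform of lipid droplet growth, had 133 and 141 CPM with DMSO, 121 and 117 CPM at 75 µg/ml and 127 and 121 CPM at 150 µg/ml, and its fall at 150 µg/ml (-0.14) became 0.04 under total counts, and the call was also lost with DESeq2, with a stricter low-count filter, and without the second DMSO, the second 75 µg/ml or either 150 µg/ml library. The ACSL3 call at 75 µg/ml (-0.21) was lost under total counts and without the second DMSO or the second 75 µg/ml library. LPIN1, the phosphatidate phosphatase that leads to diacylglycerol, had 264 and 276 CPM with DMSO, 263 and 256 CPM at 75 µg/ml and 348 and 367 CPM at 150 µg/ml. LPIN1 stood at a log2 fold change of -0.06 at 75 µg/ml, which did not pass, and rose 1.32-fold at 150 µg/ml (edgeR log2 fold change 0.41, adjusted p = 1.9e-06, SE 0.0485).

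The summed level of the 39 members was 7356 and 7758 CPM with DMSO, 6359 and 6225 CPM at 75 µg/ml and 5913 and 6081 CPM at 150 µg/ml. Against DMSO the mean sum stood at -20.6% for 150 µg/ml and -16.7% for 75 µg/ml, and without FASN and SCD at -14.5% and -11.8%. Fatty acid synthesis summed to 2329 and 2371 CPM with DMSO, 1818 and 1818 CPM at 75 µg/ml and 1653 and 1659 CPM at 150 µg/ml, a difference of -29.5% at 150 µg/ml, and of -18.0% without FASN. For the early mevalonate, late sterol and desaturation genes the sum at 150 µg/ml differed from DMSO by -23.7%, -21.6% and -20.8%, and for the regulators by -10.9%. The acyl-CoA and phosphatidate group differed by 11.7% at 150 µg/ml and -10.0% at 75 µg/ml, and LPIN1 holds most of its counts. Under total counts the sums of all 39 members differed by -9.66% at 150 µg/ml and -9.13% at 75 µg/ml, and without FASN and SCD by -2.66% and -3.73%. Fatty acid synthesis then differed by -19.8% and -15.6%, and without FASN by -6.67% and -4.47%. The early mevalonate, late sterol and desaturation sums differed by -13.1%, -10.8% and -9.89% at 150 µg/ml under that scaling. The sums of the regulators turned, to 1.45% and 0.861%, and the acyl-CoA and phosphatidate group stood at 27.1% at 150 µg/ml and -1.79% at 75 µg/ml. Whether the steps differ from each other was not tested.

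**Figure D4:**
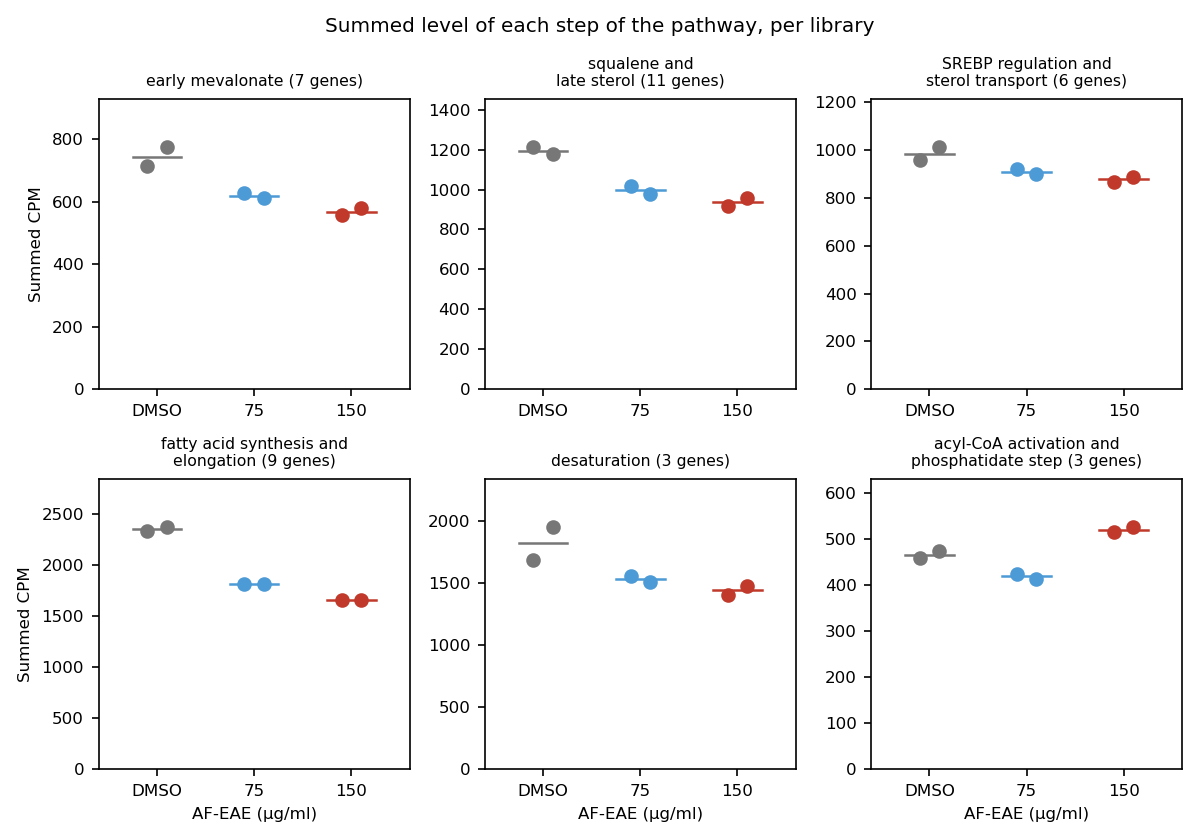
Summed CPM (TMM-scaled) of the members of each of 6 steps in each library (points) with the group mean (line); axes start at 0. Sums step down with dose under this scaling, except in the acyl-CoA activation and phosphatidate group, which is highest at 150 µg/ml; under total counts the regulators differ by 1.45% at 150 µg/ml.

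Ratios between members within a library do not depend on the scaling, but count unequal gene lengths. The ratio of FADS2 to FADS1 counts was 1.03 and 1.05 with DMSO, 0.764 and 0.727 with 75 µg/ml and 0.591 and 0.561 with 150 µg/ml, with no overlap between groups. ACSS2 to ACLY stood at 0.121 and 0.143 with DMSO, 0.222 and 0.209 with 75 µg/ml and 0.229 and 0.243 with 150 µg/ml, so the treated libraries were all higher than DMSO and the doses did not overlap. LPIN1 to FASN was 0.260 and 0.270 with DMSO, 0.408 and 0.387 with 75 µg/ml and 0.620 and 0.648 with 150 µg/ml, in order of dose. For TM7SF2 to DHCR7 the ratio was 0.0505 and 0.0499 with DMSO, 0.106 and 0.108 with 75 µg/ml and 0.119 and 0.106 with 150 µg/ml, and the doses overlapped. Other pairs were taken as well. SREBF1 to SREBF2 was 0.450 and 0.536 with DMSO, 0.418 and 0.460 with 75 µg/ml and 0.480 and 0.491 with 150 µg/ml, and each dose overlapped with DMSO. INSIG1 to INSIG2 and ACSL1 to ACSL3 were lower in all treated libraries than in DMSO. With 2 libraries against 2, an exact permutation test cannot go below p = 0.333, so no p is given for a ratio. The pairs were chosen with their values known.

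**Figure D5:**
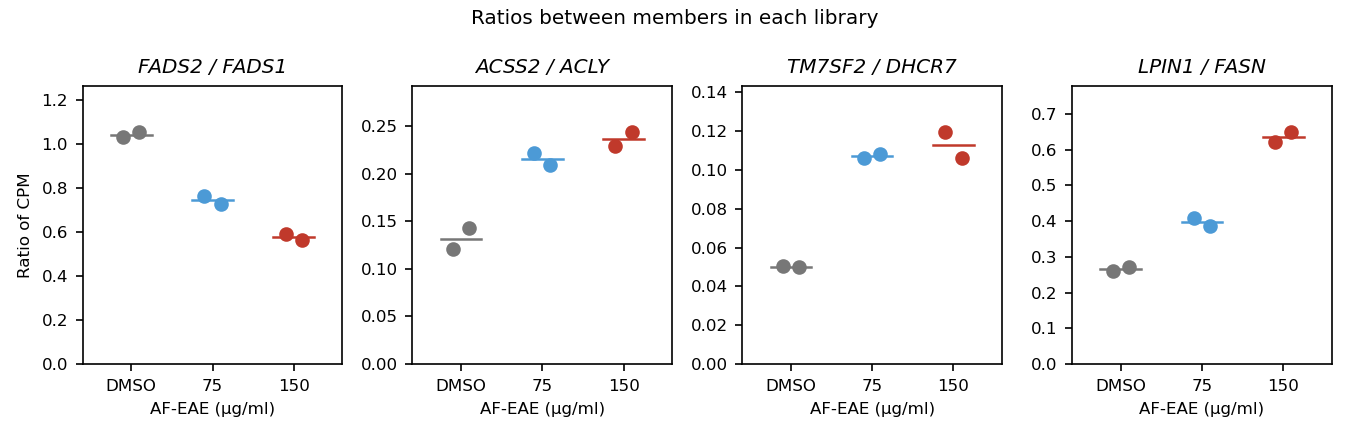
Ratio of CPM between 4 pairs of members in each library (points) with the group mean (line), in DMSO and at 75 and 150 µg/ml AF-EAE; axes start at 0. FADS2 to FADS1 is 1.03 to 1.05 in DMSO and 0.561 to 0.591 at 150 µg/ml, and LPIN1 to FASN is highest at 150 µg/ml.

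Most members called at 1 dose were called at both, in comparisons that share their DMSO libraries. The share of all tested genes called at both doses is not given here, so this count has no background beside it. Of the members 19 were lower at both doses, 3 higher at both (TM7SF2, ACSS2 and FADS1), 7 lower at 150 µg/ml only, 3 higher at 150 µg/ml only (STARD4, MID1IP1 and LPIN1), 2 called at 75 µg/ml only (CYP51A1 and SC5D), 5 at neither and 0 in opposite directions. Under total counts 11 members were lower at 75 µg/ml, and all of these but SREBF1 were also lower at 150 µg/ml. A call at 1 dose only does not show that the doses differ, and 150 against 75 µg/ml tests this. In that comparison 9 members were lower and 4 higher, where 12.5% of all tested genes were lower and 9.51% higher, and 18.7% lower among genes with 10 CPM or more. The 9 were ACAT2, IDI1, FDFT1, SCAP, INSIG1, ACLY, ACACA, FASN and FADS2, and the 4 were SC5D, STARD4, MID1IP1 and LPIN1. FDFT1 (-0.28), FASN (-0.21) and FADS2 (-0.29) lower, and MID1IP1 (0.37) and LPIN1 (0.46) higher, on the log2 scale, held under every alternative. The count of lower members was 4 without the first 150 µg/ml library or without the first 75 µg/ml library, and that of higher members was 2 without the first 150 µg/ml library. In all, 8 of the 13 calls were lost when some library was left out.

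Neighbouring parts of lipid metabolism were described from 7 lists of 91 genes, beside 25.7% of all tested genes lower and 25.8% higher at 150 µg/ml. At 75 µg/ml the shares were 19.4% lower and 19.2% higher. With lists this short, many of the counts lie near those shares. In the machinery of SREBP cleavage and sterol-regulated degradation, 4 of 9 genes were lower and 1 higher at 150 µg/ml. Its ERLIN1, part of an endoplasmic reticulum degradation complex, averaged 133 ± 5.42 CPM at 150 µg/ml and 235 ± 5.18 CPM in DMSO (SD, n = 2 each; edgeR log2 fold change -0.83, adjusted p = 7.9e-10). In the isoprenoid branch 5 of 13 were lower and 1 higher, led by ICMT, the methyltransferase of prenylated proteins, with 94.4 ± 3.54 CPM at 150 µg/ml and 179 ± 6.34 CPM in DMSO (SD, n = 2 each; edgeR log2 fold change -0.93, adjusted p = 3.1e-10). Among 12 tested genes of sterol uptake, trafficking and esterification 5 were higher and 2 lower at 150 µg/ml, and 6 higher and 2 lower at 75 µg/ml. Of these SCARB1, a lipoprotein receptor, averaged 48.2 ± 5.11 CPM at 150 µg/ml and 107 ± 12.1 CPM in DMSO (SD, n = 2 each; edgeR log2 fold change -1.15, adjusted p = 3.7e-09), and OSBPL2, a lipid transfer protein, was higher. Of 6 tested efflux and LXR genes 2 were higher and 1 lower at 150 µg/ml, and 3 higher and 2 lower at 75 µg/ml. They went both ways, with NR1H3, which encodes LXR alpha, at 22.6 ± 1.36 CPM at 150 µg/ml and 12.2 ± 0.00847 CPM in DMSO (SD, n = 2 each; edgeR log2 fold change 0.89, adjusted p = 4.3e-06). MYLIP, an LXR target that marks lipoprotein receptors for degradation, was lower (edgeR log2 fold change -0.84, adjusted p = 4.3e-05).

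Of 20 genes of fatty acid oxidation 8 were higher and 6 lower at 150 µg/ml, and 8 higher and 3 lower at 75 µg/ml. CPT2, of the carnitine shuttle, averaged 8.26 ± 0.0267 CPM at 150 µg/ml and 4.82 ± 0.144 CPM in DMSO (SD, n = 2 each; edgeR log2 fold change 0.78, adjusted p = 0.00098), and PPARA, a transcription factor of fatty acid oxidation, averaged 47.2 ± 3.97 CPM at 150 µg/ml and 27.8 ± 3.60 CPM in DMSO (SD, n = 2 each; edgeR log2 fold change 0.76, adjusted p = 4e-06). Among the 6 lower genes, chosen after their values were seen, were HADH and ECI2, enzymes of the oxidation route, with log2 fold changes of -0.43 and -0.41 at 150 µg/ml. Of 12 tested genes of other elongation and activation steps 7 were lower and 3 higher, with the acyl-CoA synthetase ACSL5 at 119 ± 1.22 CPM at 150 µg/ml and 67.5 ± 1.80 CPM in DMSO (SD, n = 2 each; edgeR log2 fold change 0.81, adjusted p = 4.4e-09). Glycerolipid and droplet genes gave 4 higher and 2 lower of 14 tested, with AGPAT5, an acyltransferase of phosphatidate synthesis, at 40.8 ± 2.94 CPM at 150 µg/ml and 76.0 ± 1.44 CPM in DMSO (SD, n = 2 each; edgeR log2 fold change -0.90, adjusted p = 1.8e-08). LPIN3 of the same list was higher at 150 µg/ml (edgeR log2 fold change 0.71, adjusted p = 8.3e-05). Per length, SCD was followed by ACLY at 95.4 RPKM, INSIG1 at 82.3, ELOVL5 at 79.8 and FASN at 79.5 RPKM over the 6 libraries. At the low end stood EBP at 5.31, HSD17B7 at 5.30, CYP51A1 at 1.54 and ACACA at 0.566 RPKM, on the GENCODE exonic length, which overstates the length of a single transcript.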

How the data were processed

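RNA was measured in 6 libraries of MDA-MB-231 cells, 2 per group. The authors deposited unnormalized read counts for 60651 genes, plus 5 lines of totals, for each library separately. HISAT2 2.2.1, HTSeq 2.0.2 and build hg38 are named, per the submitters' processing notes. For counting options, strand use, poly(A) selection and annotation release, the labels were silent (not given in the sources used here). Lines of totals entered no fit. Among them, reads outside genes were 6.32% to 7.98% of the counted reads, highest at 150 µg/ml. Reads shared by overlapping genes were 10.95% to 11.48%, so overlapped genes may be counted low.

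From these counts, edgeR 4.0.16 in R 4.3.3 gave TMM-scaled CPM and the quasi-likelihood F-test over all 6 libraries, with 1 mean per group, its default low-count filter (15589 genes kept) and Benjamini-Hochberg adjustment at 0.05 over all tested genes. The standard error (SE) was derived from the F statistic. The biological coefficient of variation was 5.08%. RPKM used GENCODE 29 exonic lengths. Coordinates are from GENCODE 29 and promoter windows from RefSeq. Alternatives used limma 3.58.1 and DESeq2 1.42.0 among others.

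The fit was tested on simulated data for 150 µg/ml against DMSO on 15192 genes. It recovered 58.5%, 79.1% and 93.9% of genes given log2 changes of 0.5, 1 and 2, and 7.83% of its calls were false. Only 65, 67 and 66 genes were given these changes, in both directions and with no shift in library composition. In the real data 4022 genes were called higher and 4000 lower at 150 µg/ml. The simulated rates therefore do not carry over to the real fit. Libraries of a group were not identical (chi-square per degree of freedom 2.78 to 3.53).

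The members and lists were chosen with earlier results of these data known. Named with values in every library were members past the test and at least 0.5 from 0 on the log2 scale at either dose, and the 2 of each step with the smallest p at 150 µg/ml. HMGCS1, FDPS, LSS, SREBF1, INSIG1, STARD4, ACLY, ACSS2, MID1IP1, FADS1 and ACSL3 were added after their values were seen. From each list of other lipid genes, at most 2 genes past the test at 150 µg/ml with a mean of 5 CPM or more were eligible, by size of change.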

Additional observations from a re-analysis of the deposited data

How the results depend on the processing

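The alternatives were DESeq2 size factors or total gene counts in edgeR, no low-count filter or a filter of 5 CPM in 2 libraries, the tools DESeq2 and limma-voom, fits to 2 groups alone, a replicate block, and each library left out in turn. Scaling and left-out libraries both moved the counts. With total gene counts, 11 members were lower at 75 µg/ml, and 16 lower and 10 higher at 150 µg/ml against DMSO. Under the same scaling 4 members gained or lost a call with a change of sign at 150 µg/ml against DMSO, at log2 fold changes of 0.17 for SC5D, 0.0145 for INSIG1, 0.0246 for ELOVL6 and 0.0443 for ACSL3. The 150 against 75 µg/ml comparison gave 5 lower members at an adjusted p of 0.01. Leaving out 1 library at a time gave 20 to 26 lower and 6 to 7 higher members at 150 µg/ml, 17 to 21 lower and 2 to 3 higher at 75 µg/ml, and 4 to 11 lower and 2 to 4 higher at 150 against 75 µg/ml. Of the step medians over all alternatives, 230 moved by less than the spread (SD of the step's median difference over pairs of libraries) and 28 by more. Under total counts the median of every step moved by more than that at 75 µg/ml against DMSO. Some of the 230 came from leaving out a library of the group not compared, which can hardly move a median. Of the calls, 13 of 24 at 75 µg/ml, 21 of 32 at 150 µg/ml and 5 of 13 at 150 against 75 µg/ml held under every alternative. DESeq2 gave 22 lower and 6 higher members at 150 µg/ml. The cause of these differences was not tested.

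The labels number the libraries of each group, but deviations of same-numbered libraries were barely correlated (0.04 for 150 µg/ml and DMSO, 0.07 for 75 µg/ml and DMSO, 0.01 for both doses), so the numbers were not taken as pairing. With the replicate number as a block, 26 members were lower and 6 higher at 150 µg/ml, 22 and 3 at 75 µg/ml, and 10 and 4 at 150 against 75 µg/ml, and no call was lost.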
